A study of Mus musculus with 38 samples.

Results

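The experiment described here set 5 stressed against 5 unstressed female mutant mice, 10 of the 38 libraries in the series. The libraries were chosen by label, as every female mutant animal with or without 21 days of chronic variable stress (CVS). The unstressed animals are called NS. The series measured RNA from the medial prefrontal cortex of mice, with the tissue taken 24 hours after the last stressor. All 10 animals were SSTCre:γ2f/f. In this genotype Cre recombinase is driven from the somatostatin gene, so the floxed allele is removed in somatostatin interneurons. The female controls carried SSTCre and had 5 CVS and 5 NS libraries. The male mutants, also SSTCre:γ2f/f, had 4 CVS and 3 NS libraries, and male controls enter only the fit used to compare female with male mutants. The labels used here give no age and no link between particular stressed and unstressed animals, and the p-values measure the spread between these libraries.

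Somatostatin interneurons are inhibitory cells that contact the dendrites of pyramidal neurons and release GABA together with the peptide somatostatin. The medial prefrontal cortex takes part in regulating the hormonal and behavioural response to stress, and repeated stress is known to alter dendrites, synapses and glucocorticoid signalling there. A whole-tissue library mixes these interneurons with pyramidal neurons, glia, vessels and the membranes at the brain surface.

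Total counts were 18.8 M to 27.5 M in CVS mutants and 18.2 M to 24.7 M in NS mutants. All 24 cortical layer and projection neuron markers passed the filter on low counts, while 2 of 10 choroid plexus markers did. Gm12663, a predicted gene named here after its values were seen, separated the genotypes. It stood between 1.42 and 3.26 CPM (counts per 1e+06 counts of the library, scaled for composition) in the 10 mutant libraries and at 0.413 CPM or less in the 10 female control libraries. Within the mutants, CVS replicate 5 (1.42 CPM), NS replicate 1 (1.44 CPM) and NS replicate 5 (1.49 CPM) lay below the other libraries, of which the lowest had 2.23 CPM.

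Stress left no gene past the threshold in female mutants. Of 16435 genes tested with edgeR's quasi-likelihood test in a fit of the 20 female libraries, 0 (0%) had a Benjamini-Hochberg adjusted p under 0.05. With other tools the count was 27 (DESeq2) or 0 (limma voom). In edgeR it was 12 without CVS replicate 5, 4 without NS replicate 1 and 36 with no filter on low counts. At an unadjusted p under 0.05 there were 1300 genes (7.91%), with 689 higher under CVS (4.19%) and 611 lower (3.72%). The 5 CVS libraries all stood above the 5 NS libraries for 137 genes (0.834%) and all below them for 106 (0.645%). The median log2 fold change over all genes was 0.00085, with quartiles of -0.07 and 0.07 and a median standard error of 0.0876. The genes named first are those of smallest p in each direction that have a symbol and are not predicted genes. This leaves out ENSMUSG00000118642, an ID with no symbol, the fourth by p, which was higher under CVS at 0.56 ± 0.119 on the log2 scale (edgeR adjusted p = 0.203) with the groups apart.

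**Figure D1:**
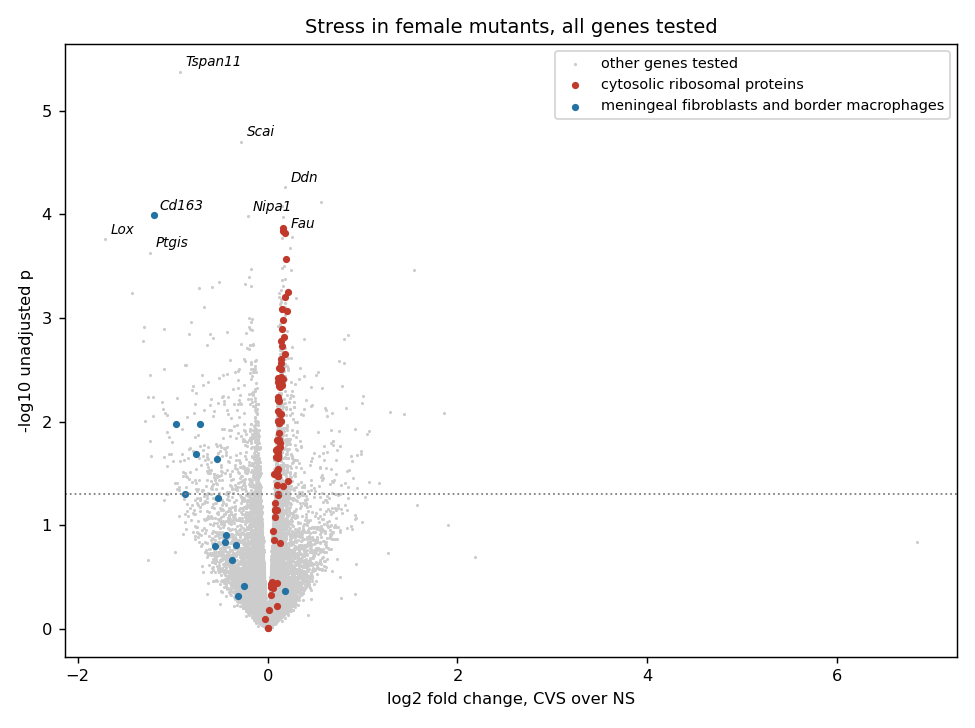
Log2 fold change (CVS over NS, horizontal) against -log10 of the unadjusted p (vertical) for the 16435 genes tested in female mutants, with cytosolic ribosomal protein genes and meningeal fibroblast and border macrophage markers coloured and the dotted line at an unadjusted p of 0.05. Ribosomal protein genes sit just right of 0 (77 of 78), and 14 of the 15 fibroblast and macrophage markers sit left of it.

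The lower genes were led by Tspan11, which encodes a tetraspanin membrane protein. It had 3.07, 2.097, 3.024, 2.489 and 1.474 CPM in CVS mutants, against 4.597, 5.524, 3.525, 4.866 and 4.553 CPM in NS mutants. Every CVS library lay below every NS library. The log2 fold change was -0.92 ± 0.17 (SE), with the smallest adjusted p of the comparison in edgeR's test, 0.0694. In female controls the log2 fold change was -0.27 ± 0.166, and the difference between mutants and controls was -0.65 ± 0.237 on the log2 scale (edgeR adjusted p = 1).

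Cd163, the scavenger receptor for hemoglobin carried by perivascular and meningeal macrophages, had 0.941, 0.885, 1.62, 1.537 and 1.271 CPM in CVS mutants. NS mutants had 3.635, 2.735, 2.538, 2.781 and 2.699 CPM, so the groups were again apart. The log2 fold change of Cd163 was -1.19 ± 0.268 (edgeR adjusted p = 0.203). Female control animals averaged 2.13 ± 1.25 CPM under CVS and 2.11 ± 0.474 CPM without it (SD, n = 5 each). The stress effect on Cd163 in mutants minus that in controls was -1.23 ± 0.372 on the log2 scale, with an unadjusted p of 0.00244 and an edgeR adjusted p of 1. Male mutants gave 0.16 ± 0.376.

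Lox, the lysyl oxidase that cross-links collagen and elastin, had 0.297, 0.0932, 0.486, 0.366 and 0.356 CPM in CVS mutants and 0.962, 1.663, 0.752, 0.856 and 1.048 CPM in NS mutants. The groups did not overlap, and the log2 fold change was -1.71 ± 0.407 (edgeR adjusted p = 0.203). Ptgis, prostacyclin synthase, averaged 1.08 ± 0.353 CPM in CVS mutants and 2.59 ± 0.794 CPM in NS mutants (SD, n = 5 each), a log2 fold change of -1.24 ± 0.297 with the groups apart. Slc47a1, an organic cation exporter singled out after its values were seen, had 2.08, 1.491, 2.214, 2.562 and 1.982 CPM in CVS mutants and 7.484, 6.275, 3.525, 4.706 and 5.963 CPM in NS mutants. The highest CVS value of Slc47a1 lay below the lowest NS value, and its log2 fold change was -1.42 ± 0.342 (edgeR adjusted p = 0.271). Female controls averaged 2.43 ± 1.05 CPM of Slc47a1 under CVS and 3.35 ± 1.69 CPM without it (SD, n = 5 each). These genes stood at a few CPM or less, where a library holds few reads per gene.

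The other lower genes of smallest p were expressed at higher levels and differed by less. Scai, a nuclear protein that restrains the serum response factor coactivator MRTF, averaged 52.4 ± 4.76 CPM in CVS mutants and 63.4 ± 3.4 CPM in NS mutants (SD, n = 5 each). Its log2 fold change was -0.28 ± 0.056 (edgeR adjusted p = 0.164), and the highest CVS value, 56.5 CPM, lay below the lowest NS value, 57.7 CPM. Nipa1, a magnesium transporter of neurons, averaged 51.01 ± 3.6 CPM in CVS mutants and 59.1 ± 1.78 CPM in NS mutants (SD, n = 5 each), also with the groups apart.

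**Figure D2:**
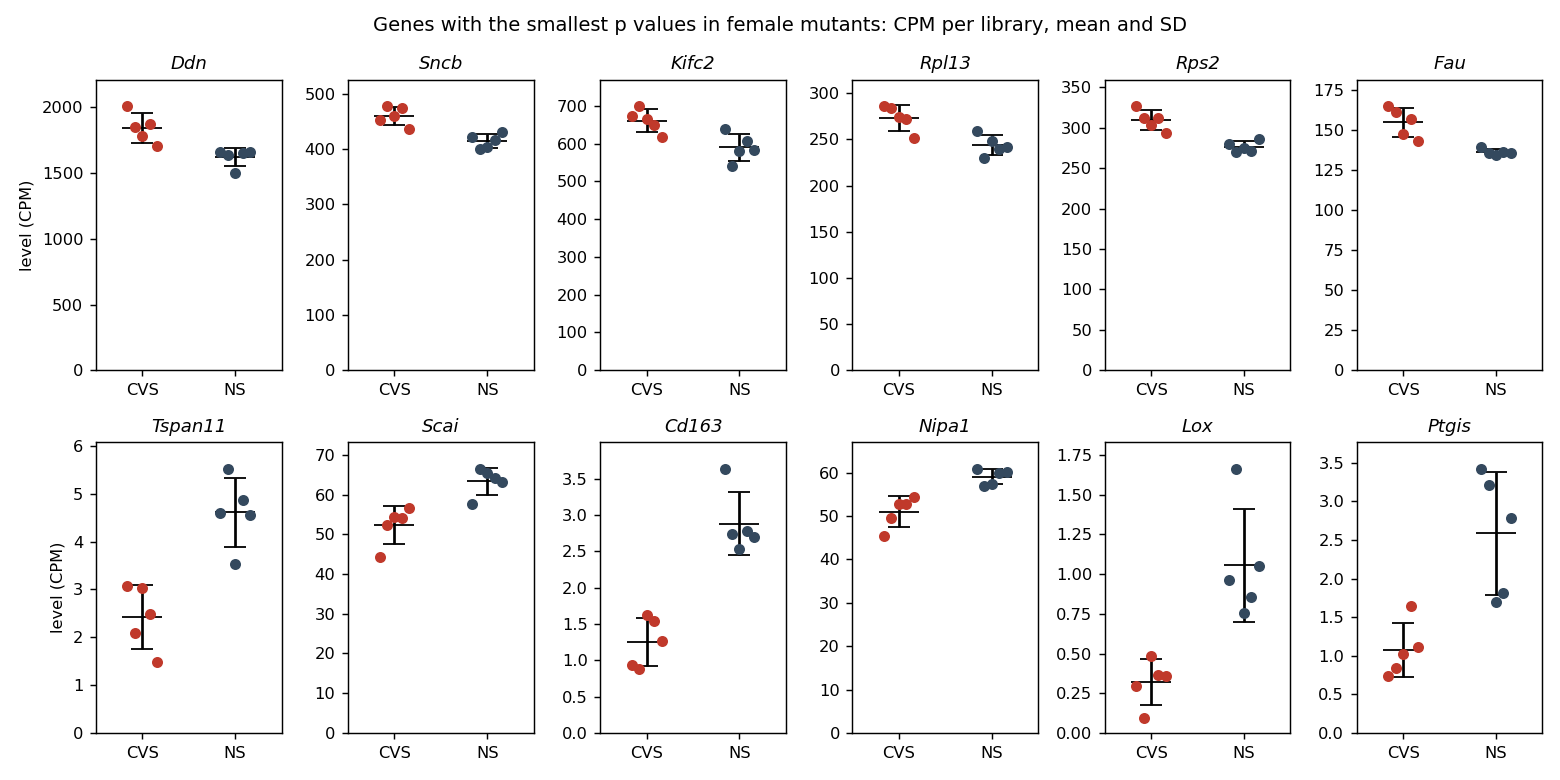
CPM (vertical) in each of the 5 CVS and 5 NS female mutant libraries for the 6 genes of smallest p in each direction (an ID with no symbol left out), with the group mean and SD; the upper row holds genes higher under CVS and the lower row genes lower under CVS. The points of both groups are fully apart for 10 of the 12 genes, with Kifc2 and Rpl13 overlapping.

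Cd163 belongs to a list of 15 markers of meningeal fibroblasts and border macrophages, cells of the brain's covering membranes and perivascular spaces. Under CVS in mutants the log2 fold change was negative for 14 of these and positive for 1, while 50.3% of all genes had a positive value. At an unadjusted p under 0.05, 5 of the 15 were lower (all genes: 3.72%) and 0 were higher (all genes: 4.19%). For 1, Cd163, the CVS libraries all lay below the NS libraries (all genes: 0.645%). The list median was -0.52. In bulk tissue, fewer cells of a type and less RNA per cell cannot be told apart, and the amount of membrane left on a dissected piece was not tested.

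Ogn, an extracellular matrix proteoglycan, had 7.726, 2.376, 8.693, 6.149 and 6.302 CPM in CVS mutants and 12.88, 14.86, 8.602, 12.25 and 11.97 CPM in NS mutants. Only CVS replicate 3 reached above the lowest NS library, and the log2 fold change was -0.96 ± 0.332. Col1a1, a chain of fibrillar collagen, averaged 7.91 ± 1.81 CPM in CVS mutants and 13.4 ± 3.21 CPM in NS mutants (SD, n = 5 each). Islr, a secreted protein of mesenchymal cells, averaged 13.8 ± 3.35 CPM in CVS mutants and 22.6 ± 5.73 CPM in NS mutants (SD, n = 5 each). Female controls under CVS averaged 6.71 CPM for Ogn, 9.65 CPM for Col1a1 and 16.27 CPM for Islr. Without CVS they averaged 7.705, 10.78 and 16 CPM in that order. For each of these genes NS mutants had the highest mean of the female groups, and CVS mutants had the lowest. Lum, a collagen-binding proteoglycan, was the member with a positive value, 0.18. Pf4, Mrc1 and Lyve1, further macrophage markers, had -0.31, -0.24 and -0.37, none at an unadjusted p under 0.05.

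Summed over the 15 markers, CVS mutants held 97.5, 53.6, 116.7, 101.5 and 89.3 CPM, and NS mutants held 154, 175.4, 110.2, 119.6 and 133 CPM. CVS replicate 2 was the lowest of the 10 libraries, and CVS replicate 3 lay above NS replicate 3, so the sums overlapped. Female control sums ran from 53.68 to 141.2 CPM under CVS and from 68.55 to 123.8 CPM without it. Leaving out CVS replicate 2 moved the list median to -0.33 with 3 markers lower at an unadjusted p under 0.05, and leaving out any 1 library left 14 of 15 negative. In female controls 5 of the 15 were positive, against 50% of all genes, with a median of -0.07, and in male mutants 10 were positive with a median of 0.03. The difference of the stress effect between female mutants and controls had a median of -0.42 over the list. At an unadjusted p under 0.05 there were 2 of 15 genes (all genes: 4%). In edgeR with the filter on low counts 0 were at an adjusted p under 0.05.

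The higher genes with a symbol were led by Ddn, dendrin, a protein of postsynaptic densities and dendrites. It had 2010, 1849, 1780, 1871 and 1709 CPM in CVS mutants, against 1662, 1637, 1498, 1657 and 1663 CPM in NS mutants. The groups did not overlap, and the log2 fold change was 0.18 ± 0.0399 (edgeR adjusted p = 0.203). In female controls it was 0.10 ± 0.0399, averaging 1781 ± 93.9 CPM under CVS and 1658 ± 64.6 CPM without it (SD, n = 5 each).

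Sncb, beta-synuclein of presynaptic terminals, averaged 461 ± 16.8 CPM in CVS mutants and 415 ± 12.7 CPM in NS mutants (SD, n = 5 each), with the groups apart and a log2 fold change of 0.15 ± 0.0337. Female controls gave 0.13 ± 0.0337 for Sncb. Kifc2, a kinesin motor of neuronal dendrites and axons, averaged 659.9 ± 30.5 CPM in CVS mutants and 589.9 ± 35.9 CPM in NS mutants (SD, n = 5 each), and here NS replicate 1 lay above the lowest CVS library. The remaining 3 of the 6 higher genes of smallest p, Rpl13, Rps2 and Fau, encode components of the ribosome.

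Rps2, a protein of the small ribosomal subunit, had 326.7, 312.1, 303.4, 312.4 and 293.6 CPM in CVS mutants, against 280.1, 269.9, 275.2, 271.1 and 286.5 CPM in NS mutants. Fau, which encodes the small-subunit protein eS30 fused to a ubiquitin-like domain, had 165, 161.6, 147.3, 156.8 and 143.2 CPM in CVS mutants, against 139.3, 135.6, 134.6, 136.6 and 135.9 CPM in NS mutants. Neither gene overlapped between groups, and the log2 fold changes were 0.16 ± 0.0383 for Rps2 and 0.18 ± 0.0432 for Fau (edgeR adjusted p = 0.203 for each). Rpl13, of the large subunit, averaged 274 ± 13.7 CPM in CVS mutants and 244 ± 10.7 CPM in NS mutants (SD, n = 5 each). Rps21 averaged 188 ± 8.39 CPM in CVS mutants and 164 ± 8.54 CPM in NS mutants (SD, n = 5 each). Rpl13 and Rps21 overlapped through CVS replicate 5, the lowest CVS library for both.

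The same direction ran through nearly the whole family. Of 78 cytosolic ribosomal protein genes tested, 77 had a positive log2 fold change, against 50.3% of all genes. At an unadjusted p under 0.05, 57 were higher (all genes: 4.19%) and 0 lower, and in 16 the CVS libraries all lay above the NS libraries (all genes: 0.834%). The median log2 fold change was 0.11, and Rpl3, at -0.02, was the member below 0. Rpl24, the remaining member of the list, did not pass the filter on low counts. These genes share each library's composition and many have processed pseudogenes, so they are not independent of each other. In edgeR's test with the filter on low counts 0 of them passed the adjusted threshold. DESeq2 called 4, Rpl13, Rps2 and Fau (adjusted p = 0.039 each) and Rps21 (adjusted p = 0.0492), and edgeR with no filter called 6.

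Summed over the 78 genes, CVS mutants held 12540, 12370, 11710, 11850 and 11390 CPM, and NS mutants held 11160, 11030, 10790, 11370 and 11030 CPM. The lowest CVS library, replicate 5, lay just above the highest NS library, replicate 4. In female controls 72 of the 78 were positive (all genes: 50%), with a median of 0.06. At an unadjusted p under 0.05, 18 were higher there (all genes: 4.46%). The difference between mutants and controls was positive for 66 of the 78 with a median of 0.06, and 4 genes were at an unadjusted p under 0.05, against 4% of all genes. Male mutants had 71 positive genes and a median of 0.06. Leaving out 1 library at a time left 75 to 78 positive, with medians between 0.10 and 0.13 and between 40 and 61 genes at an unadjusted p under 0.05.

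The promoters of the 4 ribosomal protein genes of smallest p are shown because these genes lead the family in the test. Each line gives the 100 bases before the RefSeq transcription start (plus strand, build GRCm38.p6). They span chr8:123102250-123102349 for Rpl13, chr17:24719963-24720062 for Rps2, chr19:6057847-6057946 for Fau and chr2:180257279-180257378 for Rps21. Capitals mark CCGGAAG, the core of sites for ETS factors, or TGACGTCA, the cAMP response element, on either strand, and neither motif contains the other.
Rpl13: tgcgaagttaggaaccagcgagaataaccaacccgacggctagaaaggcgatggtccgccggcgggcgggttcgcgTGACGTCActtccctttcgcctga
Rps2: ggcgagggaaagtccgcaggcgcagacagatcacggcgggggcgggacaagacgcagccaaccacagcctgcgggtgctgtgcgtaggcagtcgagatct
Fau: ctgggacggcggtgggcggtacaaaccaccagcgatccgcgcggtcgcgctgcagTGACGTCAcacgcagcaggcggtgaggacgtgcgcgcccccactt
Rps21: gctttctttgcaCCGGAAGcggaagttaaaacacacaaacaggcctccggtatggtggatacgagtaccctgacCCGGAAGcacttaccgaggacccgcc

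Rpl13 and Fau each held the cAMP response element, Rps21 held CCGGAAG at 2 places, and Rps2 held neither in these windows. RefSeq lists 2 starts for Rps21, and the 100 bases before the other start, at chr2:180257349-180257448, hold 1 of these places. Of the 57 tested ribosomal protein genes with a RefSeq promoter entry, 18 (31.6%) held CCGGAAG within 250 bases before the start, against 1650 of 11767 tested genes (14%). TGACGTCA was present in 6 of the 57 (10.5%), against 349 of the 11767 (2.97%). The GC box GGGCGG, also searched on both strands, was present in 29 (50.9%) of the ribosomal protein promoters and in 62% of all. A match describes the letters of the window and says nothing on binding.

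Genes of the respiratory chain leaned the same way by less. Of 76 nuclear-encoded oxidative phosphorylation genes, 65 were positive in mutants (all genes: 50.3%), 16 were higher at an unadjusted p under 0.05 (all genes: 4.19%), 0 were lower, and in 5 the CVS libraries all lay above the NS libraries (all genes: 0.834%), with a median of 0.06. Leaving out 1 library at a time gave 10 to 23 higher at that p, with 10 without CVS replicate 1. Ndufs7, a core subunit of complex I, had 75.62, 75.76, 74.56, 70.75 and 71.06 CPM in CVS mutants, against 66.55, 67.79, 62.89, 66.74 and 62.37 CPM in NS mutants. The groups were apart, and the log2 fold change was 0.17 ± 0.0433 (edgeR adjusted p = 0.259). Cox4i1, of cytochrome c oxidase, averaged 396 ± 12.1 CPM in CVS mutants and 364 ± 9.42 CPM in NS mutants (SD, n = 5 each). Atp5d, of ATP synthase, averaged 182 ± 3.31 CPM in CVS mutants and 169 ± 4.54 CPM in NS mutants (SD, n = 5 each). Means in female controls under CVS were 73.38 CPM for Ndufs7, 390.3 CPM for Cox4i1 and 187.3 CPM for Atp5d. Without CVS these control means were 72.98, 376.5 and 181.7 CPM. For each of these genes NS mutants had the lowest mean of the female groups.

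In female controls 46 of the 76 were positive (all genes: 50%), with a median of 0.01. The difference between mutants and controls had a median of 0.05 with 2 genes at an unadjusted p under 0.05 (all genes: 4%). All 12 mitochondrially encoded genes tested were positive in mutants (median 0.08) and 5 were in controls (median -0.02). Of them mt-Co3 was the 1 gene with groups apart in mutants, higher under CVS (all genes: 0.834%). It averaged 7.26 ± 0.546 CPM in CVS mutants and 5.92 ± 0.517 CPM in NS mutants (SD, n = 5 each). The difference was 0.30 ± 0.115 on the log2 scale. This is a low level in the list: mt-Co1 averaged 12680 ± 621 CPM in CVS mutants and 11840 ± 767 CPM in NS mutants, with overlapping groups. The mitochondrial share of all counts was 3.67% ± 0.255 in CVS mutants and 3.55% ± 0.227 in NS mutants (SD, n = 5 each; exact two-sided permutation p = 0.437). Translation factors, which act with ribosomes in protein synthesis, did not lean with them: 16 of 36 were positive and the median was -0.01. Eif4g2, an initiation factor homologue, was lower in mutants at -0.09 ± 0.0364, and Eif5a, an elongation and termination factor, was higher at 0.09 ± 0.0359, neither past the adjusted threshold.

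**Figure D3:**
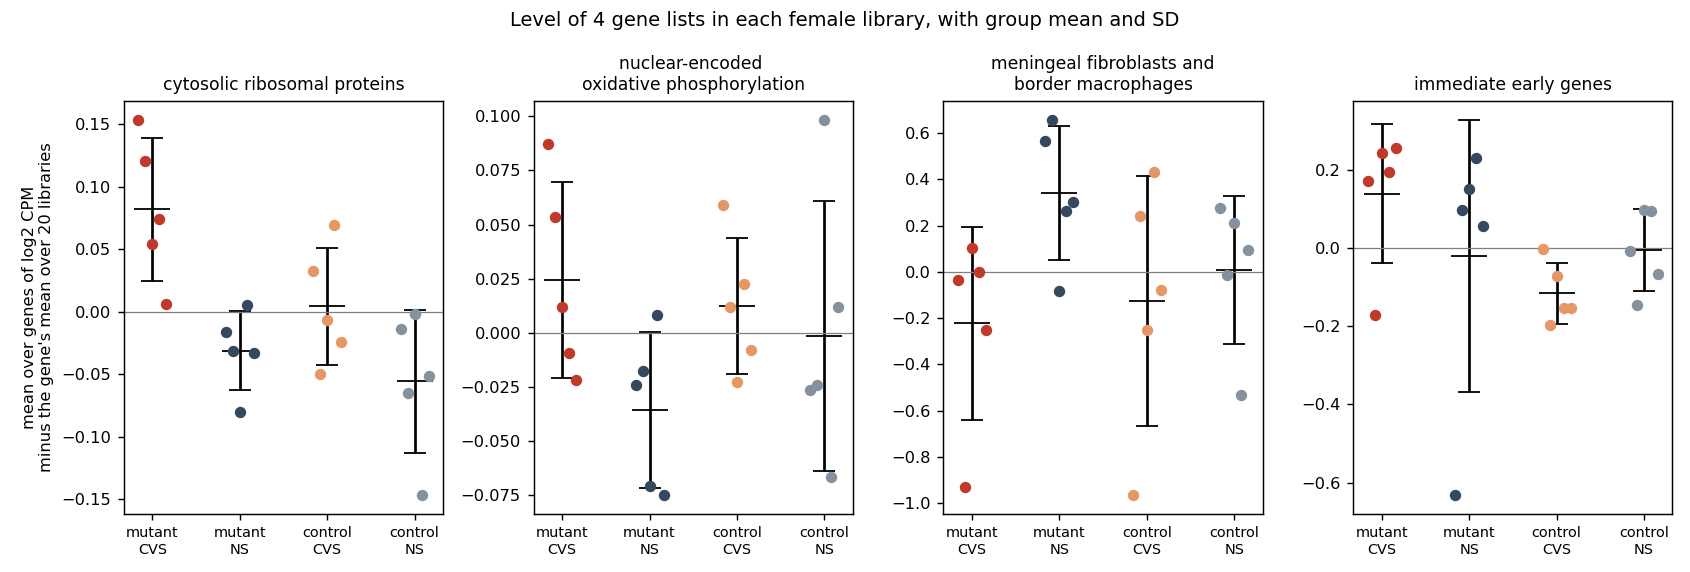
Level of 4 gene lists in each female library (vertical: mean over genes of log2 CPM minus the gene's mean over the 20 female libraries), by group, with group mean and SD. Ribosomal protein genes have the highest mean in mutant CVS libraries, mutant CVS replicate 2 is low for fibroblast and macrophage markers, and mutant NS replicate 1 is low for immediate early genes (-0.63).

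Among 28 glutamate receptor and excitatory postsynapse genes, 6 were higher and 2 lower at an unadjusted p under 0.05 in mutants (all genes: 4.19% and 3.72%), with a median of 0.02. The 6 became 2 without CVS replicate 4 and 3 without NS replicate 2 or NS replicate 4. Shank3, a scaffold of the postsynaptic density, had 397.6, 404, 407.6, 395.9 and 381.3 CPM in CVS mutants, against 352.9, 374.4, 347.4, 360.8 and 351 CPM in NS mutants. The groups were apart, with a log2 fold change of 0.15 ± 0.0417 (edgeR adjusted p = 0.281), against 0.00 ± 0.0417 in female controls. Shank1, its paralogue, averaged 904.1 ± 44 CPM in CVS mutants and 823.9 ± 21.6 CPM in NS mutants (SD, n = 5 each). Female controls averaged 388.3 CPM of Shank3 under CVS and 388.5 CPM without it. For Shank1 they averaged 907.2 CPM under CVS and 897.6 CPM without it. NS mutants thus had the lowest mean of the female groups for both genes. Gria2 and Gria3, AMPA receptor subunits, were both at -0.10, with standard errors of 0.038 and 0.0358. With an offset for GC content the list had 2 genes higher and 0 lower at that level. The 26 presynaptic release genes had 12 positive and 14 negative members and a median of -0.0018.

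Of 12 GABA-A receptor subunit genes, 10 were negative in mutants, with a median of -0.08. Gabrd, the delta subunit of extrasynaptic receptors, was at 0.12 ± 0.0611. The subunit transcripts had a median GC content of 44.1%, and with the GC offset 4 were positive and the median was -0.04. Of 20 inhibitory scaffold and GABA handling genes, 15 were positive, with Insyn1, an inhibitory synapse organiser, at 0.10 ± 0.0402.

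Somatostatin neuron markers showed no common lean, with 7 of 16 positive and a median of -0.02. Sst had 143.4, 156, 133.1, 130.2 and 118.9 CPM in CVS mutants and 128, 129.8, 142.9, 140 and 131 CPM in NS mutants. The groups overlapped fully, and the log2 fold change was 0.02 ± 0.0643 (edgeR adjusted p = 0.967). Pdyn, prodynorphin, was at 0.20 ± 0.0759 and Sstr4, a somatostatin receptor, at -0.24 ± 0.0977, both overlapping between groups.

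Immediate early genes, transcription factors and effectors induced within minutes of neuronal activity, had 22 of 28 members positive in mutants (all genes: 50.3%). The list median was 0.15. At an unadjusted p under 0.05, 3 were higher (all genes: 4.19%) and 0 lower (all genes: 3.72%). Fos had 28.13, 22.46, 30.94, 32.21 and 34.16 CPM in CVS mutants, against 8.767, 27.25, 27.87, 31.66 and 23.41 CPM in NS mutants. NS replicate 1 lay far below the other 9 libraries, which overlapped. The log2 fold change of Fos was 0.31 ± 0.245 (edgeR adjusted p = 0.808). Npas4, an activity-dependent transcription factor, was also lowest in NS replicate 1, at 11.65 CPM, with group means of 23.4 ± 1.73 CPM under CVS and 21.1 ± 6.7 CPM in NS mutants (SD, n = 5 each).

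Without NS replicate 1 the list had 19 positive members and a median of 0.04. The 3 members higher at an unadjusted p under 0.05 became 2 without NS replicate 1 and 6 without NS replicate 4 or CVS replicate 2. Gadd45b and Gadd45g, stress-inducible regulators of growth and DNA demethylation, had groups apart, higher under CVS (all genes: 0.834%). Their log2 fold changes were 0.28 ± 0.0932 and 0.29 ± 0.105 in mutants and 0.08 ± 0.093 and 0.46 ± 0.107 in female controls. Btg2, the other member higher at an unadjusted p under 0.05, was at 0.57 ± 0.245 in mutants and 0.52 ± 0.255 in controls. In mutants Bdnf, the brain-derived neurotrophic factor, was at -0.05 ± 0.104. In female controls 7 of the 28 were positive with a median of -0.16. The difference between mutants and controls had a median of 0.29, with 3 genes at an unadjusted p under 0.05 (all genes: 4%). In the same edgeR fit 0 were at an adjusted p under 0.05.

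The feedback inhibitors of MAP kinase signalling, phosphatases and adaptors that these kinases induce, had 13 of 15 positive in mutants (all genes: 50.3%). Medians were 0.10 in mutants and -0.13 in female controls, where 2 of 15 were positive (all genes: 50%). In controls 7 were lower at an unadjusted p under 0.05 (all genes: 4.26%) and 0 higher. The difference between mutants and controls had 14 of 15 positive and 6 at an unadjusted p under 0.05 (all genes: 4%). In edgeR with the filter on low counts 0 were at an adjusted p under 0.05. With no filter edgeR called the difference of Dusp4, a phosphatase of ERK (0.80, adjusted p = 0.00146). It also called that of Spry4, a Sprouty inhibitor (0.54, adjusted p = 0.0256). With the filter Dusp4 was at 0.13 in mutants and -0.67 in controls, and Spry4 at 0.13 and -0.40. Dusp8, a phosphatase of stress-activated kinases, was the 1 member higher at an unadjusted p under 0.05 in mutants (all genes: 4.19%), at 0.10 ± 0.0356. Without NS replicate 1, 7 of the 15 were positive with a median of -0.0015, the median was 0.05 and 0.06 without CVS replicates 3 and 5, and with the share of the most abundant ID as a covariate 8 were.

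Of 24 glucocorticoid-induced genes, 17 were negative in mutants, while 50.3% of all genes were positive. At an unadjusted p under 0.05, 2 were lower (all genes: 3.72%) and 0 higher (all genes: 4.19%). The list median was -0.09, against 0.0048 in female controls. Leaving out 1 library at a time moved the mutant median between -0.13 and -0.03, with -0.03 without NS replicate 1, -0.05 without CVS replicate 4 and -0.06 without NS replicate 4. Map3k6, a kinase of the stress-activated cascade, had 1.981, 3.588, 2.862, 2.526 and 2.49 CPM in CVS mutants and 5.934, 3.164, 4.136, 4.92 and 3.304 CPM in NS mutants. CVS replicate 2 overlapped the NS range, and the log2 fold change was -0.67 ± 0.181 (edgeR adjusted p = 0.281). Sult1a1, a sulfotransferase, was at -0.43 ± 0.151. Fkbp5, the glucocorticoid receptor co-chaperone, had 25.16, 26.79, 33.21, 28.22 and 36.19 CPM in CVS mutants and 36.08, 32.18, 35.96, 42.24 and 29.69 CPM in NS mutants, a log2 fold change of -0.24 ± 0.147 with overlapping groups. Sgk1, a kinase induced by corticosteroids, was at -0.14 ± 0.135, with NS replicate 1 the highest library at 50.4 CPM. The tissue was taken 24 hours after the last stressor.

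In the CRH system and corticosteroid receptor list 8 of 11 tested genes were positive and 0 were at an unadjusted p under 0.05 (all genes: 7.91%). Crh itself was at 0.17 ± 0.144. The clock list had 13 of 18 positive with a median of 0.05, but 8 positive and a median of -0.01 without NS replicate 1, and medians of 0.0075 to 0.09 without CVS replicates 2, 3 or 5. Clock, the core activator, was at -0.15 ± 0.048, while Dbp, a clock output factor, was at 0.23 ± 0.0964 and Bhlhe41, a clock repressor, at 0.16 ± 0.0621, all with overlapping groups. Neuropeptide and opioid genes split 12 positive to 9 negative, with the delta opioid receptor gene Oprd1 at 0.14 ± 0.0544. Monoamine and acetylcholine receptor genes had 21 of 28 negative with a median of -0.07, and 3 were lower at an unadjusted p under 0.05 (all genes: 3.72%). These were the nicotinic subunit Chrna7 at -0.26 ± 0.101, the serotonin receptor Htr2a at -0.29 ± 0.117 and the alpha2 adrenergic receptor Adra2a at -0.24 ± 0.104.

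**Figure D4:**
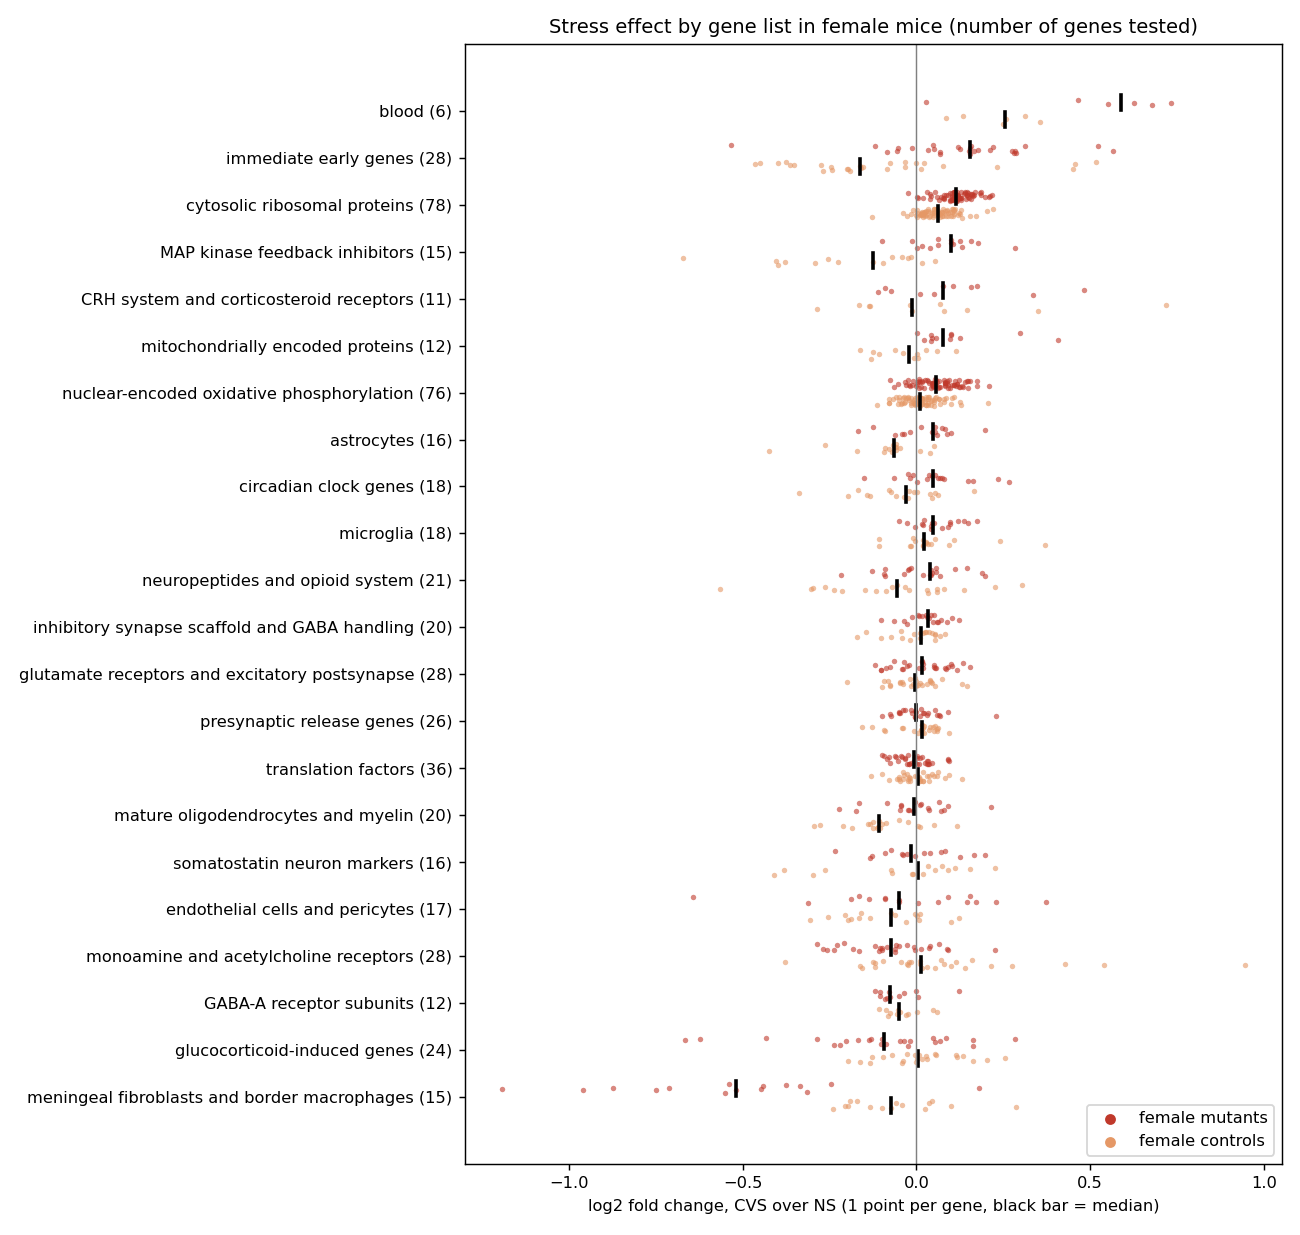
Log2 fold change (CVS over NS) of each tested gene in the 22 lists described, in female mutants (above) and female controls (below) within each list, with a black bar at the median. The fibroblast and macrophage markers have the lowest mutant median (-0.52), and ribosomal protein genes sit right of 0 for 77 of 78.

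The glial and vascular lists had mutant medians between -0.05 and 0.05. Astrocyte markers had 10 of 16 positive with a median of 0.05. Sox9, an astrocyte transcription factor, was at 0.20 ± 0.0878 and Aqp4, the water channel of their endfeet, at -0.12 ± 0.0585. In female controls 3 of the 16 were positive with a median of -0.06. The difference between mutants and controls was positive for all 16 with a median of 0.10. At an unadjusted p under 0.05 that difference had 1 gene (all genes: 4%), and at an adjusted one 0. Microglia markers had 15 of 18 positive in mutants with a median of 0.05, and C1qa, a complement component, was at 0.15 ± 0.0653. Endothelial and pericyte markers had 8 of 17 positive with a median of -0.05, which was 0.06 without CVS replicate 5. At an unadjusted p under 0.05, 0 were higher (all genes: 4.19%) and 2 lower (all genes: 3.72%). The 2 were Anpep, an aminopeptidase of pericytes, at -0.64 ± 0.273 and Cdh5, the cadherin of endothelial junctions, at -0.31 ± 0.146. Kcnj8 of the same list went the other way, at 0.37 ± 0.192, and was not at that p. Myelin and mature oligodendrocyte markers had 9 of 20 positive with a median of -0.01, and Cldn11, the claudin of myelin tight junctions, was at -0.22 ± 0.0643 in mutants and -0.21 ± 0.0639 in controls.

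All 6 blood markers tested were positive in mutants with a median of 0.59 and 0 at an unadjusted p under 0.05 (all genes: 7.91%). Leaving out 1 library at a time moved that median between 0.30 and 0.85, with 0.30 without CVS replicate 2. Hbb-bs, adult beta-globin, had 96.82, 91.23, 32.5, 40.45 and 53.67 CPM in CVS mutants and 45.49, 44.84, 18.05, 27.43 and 59.99 CPM in NS mutants. CVS replicates 1 and 2 were above the rest and the other libraries overlapped. Reads of the near-identical globin copies may be divided between them. Of the 16 lists not described here by their members, 15 had medians between -0.07 and 0.04, and the 2 choroid plexus markers tested had a median of -0.23.

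Transcript GC content moved with the fold change in both genotypes. Over 16126 genes with a value (98.1% of those tested), Spearman's rho between GC content and the log2 fold change was 0.273 in mutants and 0.202 in female controls, as a description across genes that share their libraries. With the genes split into 10 equal bins by GC content, the mutant median was -0.05 in the lowest bin and 0.06 in the highest. Transcript length had a weaker trend of opposite sign, with a rho of -0.122 in mutants. In 10 equal bins by length, the mutant median was 0.03 in the shortest and -0.02 in the longest. Median lengths were 630.2 bases for ribosomal protein genes and 607.5 bases for oxidative phosphorylation genes. With a length offset edgeR called 0 genes in mutants at an adjusted p under 0.05. The 6 higher genes with a symbol of smallest p had a median GC content of 58.7% and the 6 lower ones 47.7%. The ID with the most counts over the 38 libraries, which has no symbol here, took 6.22% ± 0.759 of counts in CVS mutants and 4.8% ± 0.62 in NS mutants (SD, n = 5 each, exact two-sided permutation p = 0.0159). In female controls it took 6.55% ± 1.23 under CVS and 5.31% ± 0.229 without it (exact two-sided permutation p = 0.0952). Without this ID, the count-weighted mean transcript GC content was 51.15% in CVS mutants and 51.03% in NS mutants. Female controls had 51.23% under CVS and 51.12% without it (exact two-sided permutation p = 0.0317 in each genotype). With the share of the most abundant ID as a covariate, edgeR called 0 genes in mutants at an adjusted p under 0.05. At an unadjusted p under 0.05 that fit had 1579 genes. Beyond this fit and the offset fits, the part of these measures in the results was not tested. With a GC offset, 75 of 78 ribosomal protein genes were positive with a median of 0.11, 61 of 76 oxidative phosphorylation genes were positive, and the fibroblast and macrophage list had a median of -0.51. Under that offset Ddn was at 0.10 in place of 0.18, and Tspan11 at -0.97.

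**Figure D5:**
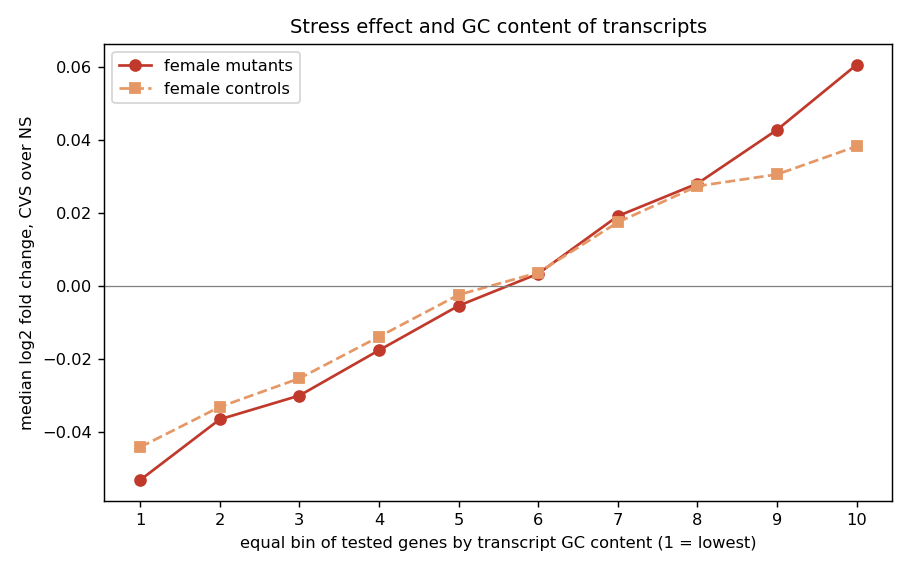
Median log2 fold change (CVS over NS, vertical) in each of 10 equal bins of tested genes by transcript GC content (horizontal, lowest to highest), in female mutants and female controls. Both lines climb with GC content, in mutants between -0.05 and 0.06.

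Female controls, whose 10 libraries are separate from those of the mutants, had 0 genes at an adjusted p under 0.05 (0%) and 1433 at an unadjusted p under 0.05 (8.72%). Of these, 733 were higher (4.46%) and 700 lower (4.26%), while the CVS libraries all lay above the NS libraries for 133 genes (0.809%) and all below for 103 (0.627%). Other tools called 28 (DESeq2) or 0 (limma voom) genes in controls. Of the 1300 genes at an unadjusted p under 0.05 in mutants, 996 (76.6%) had the same sign in controls, against 59.7% of all genes. In 193 of the 1300 the controls were at an unadjusted p under 0.05 with the same sign, and in 15 with the opposite sign. The test of the difference between mutants and controls found 0 genes at an adjusted p under 0.05 (0%) with edgeR, DESeq2 and limma voom, and 658 at an unadjusted p under 0.05 (4%) with edgeR, 343 of them positive (2.09%) and 315 negative (1.92%). The libraries of the 2 sexes also stood apart in composition, which cannot be told apart from sex. The most abundant ID took 4.21% to 7.83% of counts in female libraries and 0.0451% to 0.406% in male libraries, and mitochondrial genes took 3.26% to 4.08% in female libraries and 5.13% to 6.66% in male libraries. The test of the difference between female and male mutants found 0 of 17671 genes by the same 3 tools, and 690 at an unadjusted p under 0.05 (3.9%) with edgeR, 328 of them positive (1.86%) and 362 negative (2.05%). The female minus male difference was positive for 49.5% of all genes.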

How the data were processed

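The authors deposited whole-number counts per gene for each library, not normalized. Per the submitters' processing notes, fastp 0.23.2, STAR 2.7.10b, featureCounts and build GRCm39 were used. Which annotation was used and whether counting used strand is not given in the sources used here; the library kit is directional per the labels' protocols. From the counts, genes were kept with edgeR's filterByExpr (minimum count 10, minimum total 15), scaled by TMM and tested by quasi-likelihood in edgeR 4.0.16 (R 4.3.3), with p-values adjusted after Benjamini and Hochberg. CPM use the TMM-scaled totals. The 20 female libraries entered 1 fit of 4 groups, and all 38 libraries a fit of 8 groups for the difference between female and male mutants. The alternatives were DESeq2 1.42.0, limma 3.58.1 (voom) and sva 3.50.0, with those listed in the closing section. The fitting code was tested on simulated data. Symbols, GC content and length came from a GRCm38 annotation matched by gene ID, and promoters from RefSeq.

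The members and the 38 gene lists were chosen with earlier results of these data known. The genes named were, among those with a symbol and not predicted genes, the 6 of smallest p in each direction, since none passed the threshold, up to 4 of smallest p in each of 22 lists, a few set genes such as Sst and Fkbp5, and those said to be named after their values were seen. List extremes and members marking a cell type were also taken after that. Results for some genes are not reported here. Of 57010 IDs in the table, 52029 had a symbol. All 20 replicate pairs within the female mutant groups differed by more than sampling noise, and other pairs were not compared.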

Additional observations from a re-analysis of the deposited data

Results flagged for a closer look

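In 11 of 204 checks, the named genes in the 2 mutant groups, 1 library stood so far from the other 4 that its gap to the nearest exceeded the critical share of the group's range. Chance gives about 5% of groups, or 10.2 here, and none of these was weighed further. CVS replicate 5 was low for Rps21 (172.7 CPM) and high for Gria3 (275.1 CPM). NS replicate 1 was high for Cd163 (3.635 CPM) and Stx1a (405.4 CPM) and low for Oprd1 (29.45 CPM) and Adra2a (13.79 CPM). NS replicate 2 was high for Eif4g2 (636.2 CPM) and mt-Nd4l (1.931 CPM) and low for Gadd45g (8.474 CPM). NS replicate 3 was low for Ddn (1498 CPM) and Atp5d (160.8 CPM).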

How the results depend on the processing

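Counts of genes at an adjusted p under 0.05 were 0 for all 4 comparisons in the edgeR fits reported. With no filter on low counts they were 36 in female mutants, 51 in female controls and 5 for the difference between them. DESeq2 called 27 in mutants and 28 in controls. A fit of the 10 mutant libraries alone called 5 (Slc26a7, Col8a2, Cd163, Efemp1 and Slc47a1, all lower), and a GC offset, chosen after seeing the data, called 1, Tspan11. Leaving out 1 library at a time gave 0 to 12 calls in mutants, with 12 without CVS replicate 5, 4 without NS replicate 1, and 1 each without NS replicate 3, CVS replicate 1 or CVS replicate 3. It gave 0 to 9 in controls and 0 to 0 for both differences. Over 102 named genes and 20 settings, 7 values changed sign: Sst was -0.02 with the GC offset and -0.03 without CVS replicate 2 (-0.03 to 0.07 leaving out 1 library at a time), Bdnf was 0.02 without NS replicate 2 (-0.14 to 0.02), and Gm12663 was 0.03, 0.01 and 0.05 without NS replicates 2, 3 and 4 and 0.06 without CVS replicate 5 (-0.22 to 0.06). The causes were not tested. Depth limits genes of a few CPM most. No paired analysis was made because the labels used here give no link between particular stressed and unstressed animals.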
